A study of Mus musculus with 20 samples.

Results

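Iron- and 2-oxoglutarate-dependent dioxygenases were examined in RNA-seq of whole mouse hearts, as a set of 44 genes chosen by symbol from the 23420 genes counted. The set holds 16 JmjC histone demethylases, 4 other JmjC proteins, 3 TET enzymes, 9 AlkB homologs, 6 collagen prolyl and lysyl hydroxylases and 6 further dioxygenases. The set was chosen without the main HIF hydroxylases, and whether any member acts on HIF was not assessed. Hearts came from wild-type male C57BL/6 mice (C57BL/6J in the study's methods) aged 9 weeks, 10 on a control diet and 10 on an iron-deficient diet (IDA mice, for iron-deficiency anemia), each fed for 6 weeks from 3 weeks of age. On the iron content of the deficient diet the label fields disagree, one putting it under 2 ppm and another over 2 ppm. The study's methods give a range that starts at 2 ppm, and a control diet far richer in iron. The labels give no litter, cage or extraction day. RNA came from pulverized whole hearts and was poly-A selected, so fewer cells of a type and less RNA per cell cannot be told apart.

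Enzymes of this family use molecular oxygen and 2-oxoglutarate as co-substrates and a ferrous iron held in the active site, and they release succinate and carbon dioxide. They remove methyl groups from histones, DNA and RNA, or hydroxylate collagen, small metabolites and other proteins. Their catalysis is known to slow when iron is chelated or oxygen is low, with affinities that differ between members. The data describe only their transcripts, which are not a measure of enzyme activity.

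The 20 libraries held between 6682177 and 8960688 counted read pairs, with medians of 7902932 in control and 6806177 in IDA hearts. Column names carried a library number, which fell in a low range (5 control and 7 IDA mice) and a high range (5 and 3). What the number stands for was not given in the sources used here. The study left out a mouse of each group for contamination without naming it in its text, so all 20 were kept. Levels are in CPM (read pairs scaled to a common library total), with TMM-adjusted sizes. Over 13590 genes, edgeR's quasi-likelihood fit gave p-values that were adjusted by the Benjamini-Hochberg method, and a member was called below 0.05. Across these genes, the log2 fold change of IDA against control fell with exonic length (Spearman rho -0.63 over the genes, none of which is an independent replicate). A correction that took out each mouse's trend on exonic length was therefore given beside each value, and a correction for length and GC content together was added after the data were seen. Both remove any trend on length, whatever its source.

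Of the 44 genes, 42 were tested. *P4ha3*, a collagen prolyl 4-hydroxylase subunit, had 74 read pairs in all 20 hearts and did not pass the filter of 1 CPM in 10 mice. *Tmlhe*, the first enzyme of carnitine synthesis, was listed at 0 in every heart, on an unplaced part of chromosome X. Among the 42 tested, 15 were higher and 24 lower in IDA hearts, against a background of 35.0% of all tested genes called higher and 32.5% called lower. With the gene length correction, 13 were higher and 13 lower, where 31.5% and 23.5% of all tested genes were called. With length and GC corrected together, 10 were higher and 12 lower, beside 28.0% and 19.4% of all genes. As shares of the 42, 35.7%, 31.0% and 23.8% were higher in the 3 fits, near the background, and 57.1%, 31.0% and 28.6% were lower, above it by less once length was corrected. No test over the members was run. The median log2 fold change of the members was -0.19 uncorrected and 0.04 corrected, beside 0.02 and 0.04 for all tested genes.

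Uncorrected changes differed between some enzyme classes, and no test of class was run. The other JmjC proteins (2 higher, 1 lower of 4) and further dioxygenases (3 and 2 of 5) were mixed, beside 35.0% and 32.5% of all tested genes. The demethylases, with a median exonic length of 6284 bp, had a median log2 fold change of -0.54. The TET genes, with a median of 10906 bp, were at -1.17, whereas the AlkB homologs, with 1713 bp, were at 0.31. The median length of all tested genes was 2900 bp. Over the 42 members, log2 fold change and length gave a Spearman rho of -0.80, which was -0.37 after the correction. These points share the same 20 libraries.

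**Figure D1:**
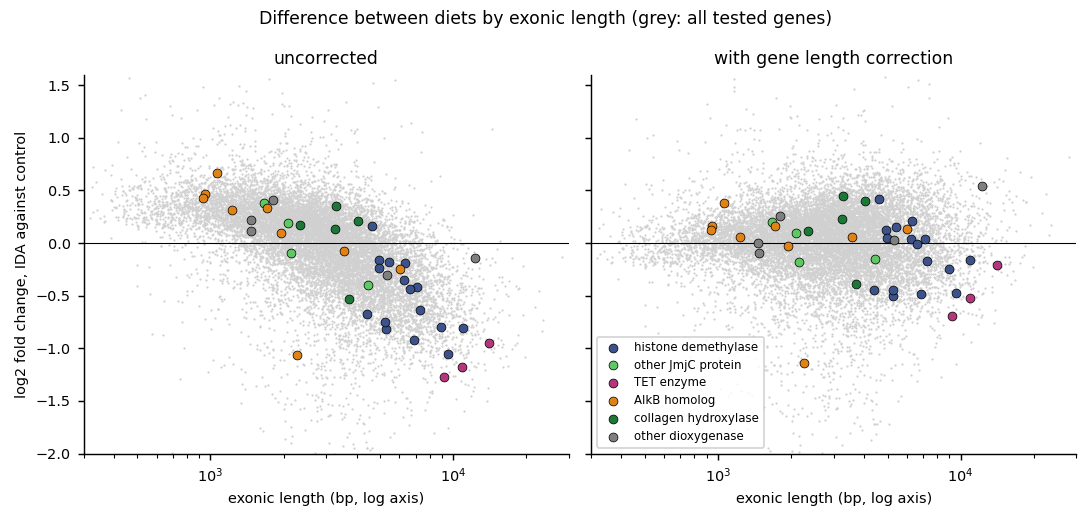
Log2 fold change of IDA against control (vertical axis) against exonic length in bp (log axis), uncorrected on the left and with the gene length correction on the right. Grey points are the tested genes, of which 43 on the left and 39 on the right lie beyond the axis, and coloured points are the 42 members by class. On the left the long demethylase and TET genes lie low and the short AlkB genes high, and on the right the classes overlap more, with *Alkbh8* and the TET genes still below 0.

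Across the 3 fits (uncorrected, length, length and GC), 14 of the 42 members kept the same call. The share of all tested genes that did so was not counted. In the first 2 fits, 40.6% of all tested genes kept the same call, as did 8 members higher and 12 lower of the 42. *Kdm4b*, *Jmjd6*, *P4ha1* and *Plod3* were higher in each. *Kdm2a*, *Kdm4c*, *Kdm6a*, *Jhdm1d*, *Phf8*, *Phf2*, *Tet2*, *Tet3*, *Alkbh8* and *Plod2* were lower in each. Promoters are shown for the higher members with a RefSeq entry and for the 3 lower members with the largest corrected change, because HIF, which low oxygen stabilizes, binds the core letters ACGTG or GCGTG. Each runs from 250 bases before to 50 after the annotated start (RefSeq, GRCm38.p6, 5′ to 3′ on the gene's strand), and capitals mark either core on either strand. They are *Jmjd6* (chr11:116843400-116843699, minus strand), *P4ha1* (chr10:59323046-59323345, plus), *Plod3* (chr5:136986769-136987068, plus), *Alkbh8* (chr9:3334981-3335280, plus), *Tet2* (chr3:133544341-133544640, minus) and *Tet3* (chr6:83441629-83441928, minus).
Jmjd6: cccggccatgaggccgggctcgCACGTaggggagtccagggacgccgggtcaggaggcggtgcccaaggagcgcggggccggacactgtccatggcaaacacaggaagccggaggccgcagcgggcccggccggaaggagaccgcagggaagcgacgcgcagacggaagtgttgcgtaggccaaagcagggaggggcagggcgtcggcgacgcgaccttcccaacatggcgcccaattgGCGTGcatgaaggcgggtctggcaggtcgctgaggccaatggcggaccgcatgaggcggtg
P4ha1: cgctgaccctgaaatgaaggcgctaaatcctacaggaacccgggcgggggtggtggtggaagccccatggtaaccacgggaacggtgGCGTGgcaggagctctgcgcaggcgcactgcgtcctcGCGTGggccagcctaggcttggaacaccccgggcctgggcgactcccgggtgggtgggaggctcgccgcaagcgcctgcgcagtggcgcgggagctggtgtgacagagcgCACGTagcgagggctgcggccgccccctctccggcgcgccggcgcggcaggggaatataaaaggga
Plod3: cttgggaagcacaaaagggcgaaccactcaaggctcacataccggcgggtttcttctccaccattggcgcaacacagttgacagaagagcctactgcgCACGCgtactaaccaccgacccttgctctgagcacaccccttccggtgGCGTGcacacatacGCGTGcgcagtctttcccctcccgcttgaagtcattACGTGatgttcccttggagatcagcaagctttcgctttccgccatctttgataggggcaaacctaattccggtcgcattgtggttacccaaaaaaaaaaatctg
Alkbh8: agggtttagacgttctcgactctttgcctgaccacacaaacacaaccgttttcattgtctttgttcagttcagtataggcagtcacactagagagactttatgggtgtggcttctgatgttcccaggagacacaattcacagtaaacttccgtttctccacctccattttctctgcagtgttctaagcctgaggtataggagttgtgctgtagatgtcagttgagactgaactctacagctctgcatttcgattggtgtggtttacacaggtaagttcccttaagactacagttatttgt
Tet2: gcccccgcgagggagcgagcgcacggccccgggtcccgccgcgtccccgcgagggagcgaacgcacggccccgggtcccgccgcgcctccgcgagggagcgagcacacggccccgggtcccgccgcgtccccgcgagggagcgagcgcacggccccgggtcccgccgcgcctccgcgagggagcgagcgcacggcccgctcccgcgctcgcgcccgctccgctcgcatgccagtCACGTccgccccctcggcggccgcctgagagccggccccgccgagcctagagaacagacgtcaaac
Tet3: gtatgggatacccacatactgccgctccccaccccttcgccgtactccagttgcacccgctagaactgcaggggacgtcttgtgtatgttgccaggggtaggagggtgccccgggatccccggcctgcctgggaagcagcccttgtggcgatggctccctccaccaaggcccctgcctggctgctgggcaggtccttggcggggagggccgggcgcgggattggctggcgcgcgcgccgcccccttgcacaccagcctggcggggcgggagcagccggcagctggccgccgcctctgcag

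A promoter entry near the annotated first base was matched for 35 of the 44 genes. None was matched for *Kdm2a*, *Kdm3b*, *Kdm4b*, *Kdm5a*, *Kdm6b*, *Tet1*, *Plod2*, *Asph* or *Tmlhe*. All 3 printed promoters of higher members hold a core, and 4 of the 8 lower members with an entry do, *Tet2* among them and *Tet3* and *Alkbh8* not. Either core is present in 43.8% of 32851 RefSeq promoters of this length and in 60.0% of the 35. Counted with or without the other core, ACGTG is in 19.6% of all and 31.4% of the 35 promoters. By the same count GCGTG is in 32.4% and 57.1%. A match gives letters only, and HIF binding was not measured here.

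Levels were compared between genes as CPM per kb of exonic length. *Phyh*, phytanoyl-CoA hydroxylase of peroxisomal alpha-oxidation, was the highest member, at 172 ± 15.6 CPM per kb in control and 187 ± 13.5 in IDA hearts (SD, n = 10 each). The highest of the collagen class was *Plod1*, at 74.9 ± 3.77 in control hearts, and of the AlkB homologs *Fto*, at 64.2 ± 1.99. *Jmjd6* led the other JmjC proteins at 40.0 ± 2.94, and *Phf2* the demethylases at 30.9 ± 3.32. Among the TET genes, *Tet3* was at 6.54 ± 1.44 and *Tet1*, the lowest tested member, at 1.68 ± 0.32. The median of all tested genes was 14.5 CPM per kb in control hearts.

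**Figure D2:**
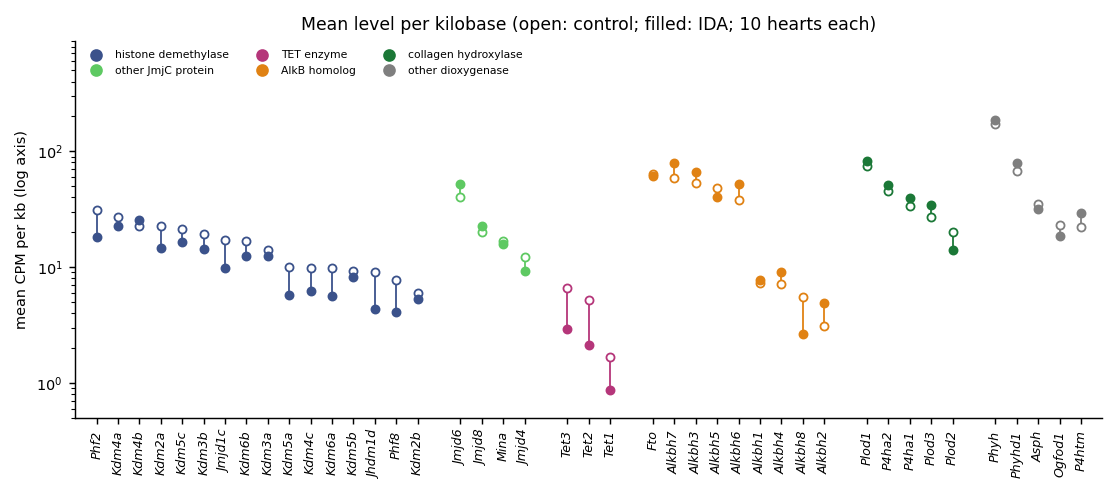
Mean level in CPM per kb (vertical log axis) of the 42 tested members, grouped by class and ordered by control level, with open circles for control and filled circles for IDA hearts (10 each). *Phyh* is highest at 172 in control hearts and *Tet1* lowest at 1.68, and *Tet2* and *Tet3* show the widest gaps between diets.

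Histone demethylases of the JmjC type take methyl groups off lysines of histone H3, which alters how open chromatin is to transcription. Of the 16, 15 were lower in IDA hearts and 1, *Kdm4b*, was higher, beside the background of 32.5% and 35.0%. With the length correction, 8 were lower and 4 higher, beside 23.5% and 31.5% of all tested genes. The same counts were found with length and GC together, beside 19.4% and 28.0%. All 16 lie above the median length of tested genes, at 4401 to 10969 bp. In the sentences that follow, 3 values in a row are the lowest, the median and the highest of 10 hearts in CPM.

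The KDM7 group (*Jhdm1d*, also known as *Kdm7a*, with *Phf8* and *Phf2*), which bind methylated lysine through a PHD finger and demethylate a neighbouring site, was lower in all 3 fits. In the mm10 annotation used for counting, *Phf8* spans chrX:151520672-151633857, *Jhdm1d* chr6:39136620-39206773 and *Phf2* chr13:48801750-48870885. *Phf8* ran from 43.3 through 55.4 to 60.7 in control hearts and from 22.9 through 26.1 to 39.3 in IDA hearts. *Jhdm1d* ran 62.0, 88.5 and 106 in control and 31.3, 35.7 and 60.2 in IDA hearts. For *Phf2* the values were 133, 167 and 185 against 73.5, 88.9 and 127. In none of the 3 genes did the groups overlap, whereas 6.28% of all tested genes were lower without overlap. Log2 fold changes were -0.92 for *Phf8* (SE 0.10, edgeR adjusted p = 2.34e-07), -1.06 for *Jhdm1d* (SE 0.13, adjusted p = 4.93e-07) and -0.75 for *Phf2* (SE 0.09, adjusted p = 6.09e-07). The correction left -0.48, -0.47 and -0.44 on the log2 scale, with adjusted p from 3.99e-06 to 2.97e-05, and corrected levels of the groups overlapped in each. Of the exons of *Jhdm1d*, 287 bp are shared with *4930599N23Rik* on the other strand, and the counts carry no strand.

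*Kdm6a* (also UTX) and *Kdm6b* remove the Polycomb methyl mark. *Kdm6a* had 36.7, 53.1 and 59.8 in control against 23.3, 26.1 and 42.1 in IDA hearts, and 8 of 10 IDA mice lay below the lowest control. The change was -0.81 on the log2 scale (SE 0.11, edgeR adjusted p = 2.13e-06) and -0.50 with the correction (adjusted p = 4.37e-05). *Kdm6b* changed by -0.44 uncorrected and was not called with length corrected (-0.01, SE 0.06), and was at -0.25 with GC as well (adjusted p = 0.00668).

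The KDM2 group acts on lysine 36 of histone H3 and recognizes unmethylated CpG islands. *Kdm2a* had 130, 165 and 191 in control and 85.1, 101 and 132 in IDA hearts, so that the ranges met at 1 IDA mouse above the lowest control. That gave a log2 fold change of -0.64 (SE 0.08, edgeR adjusted p = 4.41e-07), and -0.17 with the correction (SE 0.04, adjusted p = 0.000997). *Kdm2b* changed direction with the correction. It had 27.2, 32.2 and 40.2 in control and 23.0, 28.9 and 34.6 in IDA hearts, a log2 fold change of -0.18 uncorrected (SE 0.08, adjusted p = 0.0414) and 0.15 corrected (SE 0.06, adjusted p = 0.0481). With GC as well it was -0.01 (adjusted p = 0.933), and the uncorrected call held in 9 of the 20 fits that each left out a mouse.

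In the KDM3 group, which removes methyl groups from lysine 9, *Jmjd1c* was lower with and without the length correction. It had 114, 155 and 177 in control and 65.0, 81.3 and 118 in IDA hearts, and 9 of 10 IDA mice were below the lowest control. The log2 fold change was -0.80 (SE 0.10, edgeR adjusted p = 8.45e-07) and -0.24 with length corrected (adjusted p = 0.000675), but -0.10 with GC as well (adjusted p = 0.0608). *Kdm3a*, a known HIF target in other cells, had 57.8, 69.5 and 78.0 in control and 50.8, 60.0 and 77.7 in IDA hearts, with the groups overlapping across most of their range. Its log2 fold change was -0.16 uncorrected (adjusted p = 0.0457), 0.12 with length corrected (adjusted p = 0.0233) and 0.26 with GC as well (adjusted p = 1.88e-05). The uncorrected call held in 8 of the 20 fits that each left out a mouse. *Kdm3b* was lower at -0.42 uncorrected, not called at 0.04 with length corrected, and higher at 0.11 with GC as well (adjusted p = 0.0404).

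The KDM4 enzymes act on trimethylated lysines 9 and 36, and their 3 genes moved apart. These genes are of like length but differ in GC content (*Kdm4a* 54.1%, *Kdm4b* 58.3% and *Kdm4c* 43.3%). *Kdm4b* had 96.0, 106 and 114 in control and 95.6, 117 and 133 in IDA hearts, and 7 IDA mice exceeded the highest control while 1 was the lowest of all. On the log2 scale the change was 0.16 (SE 0.05, edgeR adjusted p = 0.00986), 0.42 with length corrected (SE 0.06, adjusted p = 8.7e-06) and 0.15 with GC as well (adjusted p = 0.00652). Among the high library numbers alone it was 0.05 uncorrected (adjusted p = 0.598). *Kdm4c* had 33.0, 44.9 and 49.5 in control against 21.1, 24.9 and 38.0 in IDA hearts, with 9 IDA mice below every control. It changed by -0.68 (SE 0.10, adjusted p = 2.32e-06), by -0.45 with length corrected (adjusted p = 2.96e-05) and by -0.26 with GC as well (adjusted p = 0.00131). *Kdm4a* was at -0.24 uncorrected and was not called with length corrected (0.05, SE 0.06) or with GC as well (-0.08).

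KDM5 enzymes erase the methyl mark of active promoters on lysine 4. *Kdm5a*, the longest demethylase gene at 10969 bp, had 89.3, 114 and 128 in control and 51.7, 61.6 and 77.7 in IDA hearts, without overlap. The log2 fold change was -0.80 (SE 0.08, edgeR adjusted p = 1.65e-07), -0.16 with length corrected (adjusted p = 0.00212) and -0.04 with GC as well (adjusted p = 0.423). *Kdm5b* had 51.1, 59.1 and 68.2 in control and 39.6, 53.0 and 60.0 in IDA hearts. It went from -0.19 (adjusted p = 0.0102) to 0.21 with the correction (adjusted p = 0.0048). Its uncorrected call was lost with a covariate for library size (-0.10, adjusted p = 0.222) or the erythroid score (-0.19, adjusted p = 0.141) and among the high library numbers (-0.15, adjusted p = 0.184), as were those of *Kdm2b* and *Kdm3a*. *Kdm5c* was at -0.36 uncorrected, 0.04 with length corrected (not called) and -0.13 with GC as well (adjusted p = 0.00591). *Kdm5a* shares 271 bp of exon with *Ccdc77* on the other strand.

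TET enzymes oxidize 5-methylcytosine in DNA to 5-hydroxymethylcytosine. They span chr3:133463677-133544390 (*Tet2*), chr6:83362374-83441678 (*Tet3*) and chr10:62804570-62880014 (*Tet1*) of mm10. All 3 were lower in IDA hearts without correction, and *Tet2* and *Tet3* were also lower under both corrections. *Tet2* had 27.6, 50.6 and 62.4 in control and 14.7, 16.6 and 30.3 in IDA hearts, and 8 of 10 IDA mice were below the lowest control. The fitted level fell by 58.7%. Its log2 fold change was -1.27 (SE 0.16, edgeR adjusted p = 9.18e-07) and -0.69 corrected (SE 0.12, adjusted p = 3.19e-05). *Tet3* had 44.3, 72.5 and 91.1 in control and 23.2, 27.4 and 47.9 in IDA hearts, and 1 IDA mouse reached into the control range. It changed by -1.17 (SE 0.14, adjusted p = 5.36e-07), by -0.53 with length corrected (adjusted p = 7.96e-05) and by -0.82 with GC as well (adjusted p = 8.53e-06). *Tet1*, the longest member at 14082 bp, was at -0.95 uncorrected (adjusted p = 5.34e-06) and -0.21 corrected (SE 0.13, adjusted p = 0.169), on 46 to 250 read pairs per heart.

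**Figure D3:**
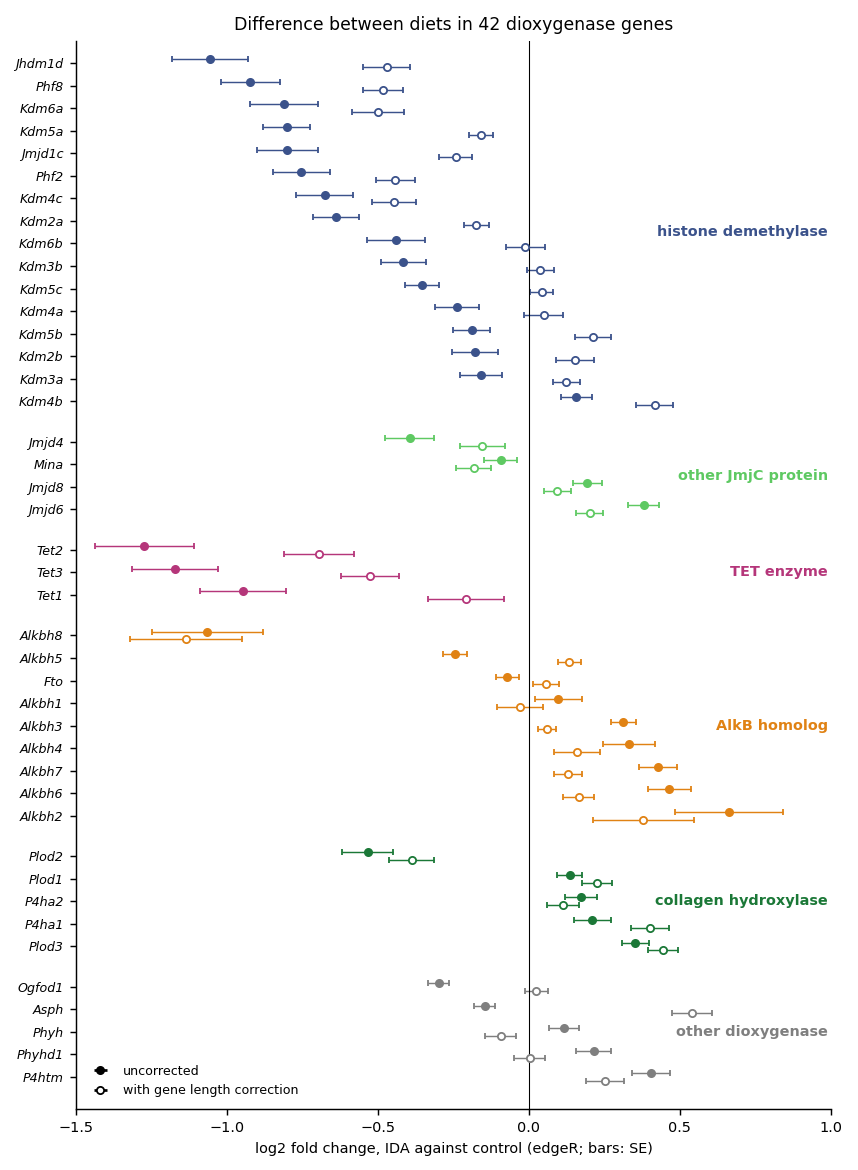
Log2 fold change of IDA against control (horizontal axis) with its SE for each tested member, by class, with filled circles uncorrected and open circles with the gene length correction. *Tet2* moves from -1.27 to -0.69 and *Asph* from -0.15 to 0.54, while *Alkbh8* stays near -1.1 and *Plod3* above 0 in both.

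The other JmjC proteins are hydroxylases or have no settled histone substrate. *Jmjd6*, a lysyl hydroxylase of splicing proteins, had 57.7, 66.5 and 74.4 in control and 73.9, 86.9 and 95.9 in IDA hearts. Of 10 IDA mice, 9 exceeded the highest control. The log2 fold change was 0.38 (SE 0.05, edgeR adjusted p = 1.47e-06), 0.20 with length corrected (adjusted p = 0.000553) and 0.14 with GC as well (adjusted p = 0.0115). *Jmjd8* was at 0.19 and *Jmjd4*, which hydroxylates the translation release factor eRF1, at -0.40, both called only without the corrections. *Mina*, a ribosomal hydroxylase, was not called without correction (-0.09) and was lower with the length correction (-0.18, adjusted p = 0.00999). Exons of *Mina* share 801 bp with *Crybg3* and those of *Jmjd8* 685 bp with *Stub1*, in each case on the other strand.

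AlkB homologs repair alkylated bases or demethylate RNA. Of the 9, 5 were higher and 2 lower, beside 35.0% and 32.5% of all genes. With the length correction 3 were higher and 1 lower, beside 31.5% and 23.5%. *Alkbh7*, a mitochondrial member, had 46.6, 54.6 and 63.7 in control and 65.2, 72.0 and 87.1 in IDA hearts, without overlap. *Alkbh6* had 29.3, 35.97 and 43.9 against 39.9, 49.96 and 57.8, with 8 IDA mice above every control. The log2 fold changes were 0.43 (SE 0.06, edgeR adjusted p = 4.17e-06) and 0.46 (SE 0.07, adjusted p = 7.07e-06). Length correction left 0.13 (adjusted p = 0.0221) and 0.16 (adjusted p = 0.0101), and neither gene was called with GC as well (0.06 and 0.08). *Alkbh3*, a repair enzyme for methylated bases, was also without overlap, at 59.5 to 73.9 in control and 78.0 to 89.1 in IDA hearts, with a log2 fold change of 0.31 uncorrected 0.06 with length corrected (adjusted p = 0.103) and 0.09 with GC as well (adjusted p = 0.019). Without overlap, 4.97% of all tested genes were higher.

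*Alkbh8* (chr9:3335231-3385846), which modifies the wobble uridine of transfer RNA, was the one member shorter than the median of tested genes that was called lower without correction. It had 6.87, 12.8 and 16.6 in control and 2.51, 6.76 and 7.98 in IDA hearts, from 19 to 147 read pairs per heart, and 5 IDA mice were below the lowest control. Its log2 fold change was -1.07 (SE 0.18, edgeR adjusted p = 2.49e-05), -1.14 with length corrected (adjusted p = 2.45e-05) and -0.89 with GC as well (adjusted p = 0.000166). Its exonic length is 2269 bp, and the correction moved it the other way from the longer members.

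*Alkbh5* and *Fto* demethylate N6-methyladenosine in RNA. *Alkbh5* had 270, 292 and 308 in control and 210, 244.5 and 272 in IDA hearts, with 9 IDA mice below every control. The log2 fold change was -0.25 (SE 0.04, edgeR adjusted p = 1.27e-05) and 0.13 with length corrected (adjusted p = 0.00428), so its direction differed between the fits. *Fto* had 218, 229 and 242.3 in control and 182, 221 and 236.8 in IDA hearts, with wide overlap. The difference of -0.07 (SE 0.04, edgeR adjusted p = 0.1) was not called, whereas DESeq2 gave -0.08 (adjusted p = 0.0362). Of the DNA repair members, *Alkbh2* was at 0.66 uncorrected on 16 to 58 read pairs per heart and 0.38 corrected (adjusted p = 0.0604). *Alkbh1* was called in none of the fits.

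Collagen prolyl 4-hydroxylases (*P4ha1*, *P4ha2*) stabilize the triple helix, and lysyl hydroxylases (*Plod1* to *Plod3*) prepare collagen for cross-links and sugars. Of the 5 tested, 4 were higher and 1, *Plod2*, was lower, beside 35.0% and 32.5% of all genes. *Plod3* (chr5:136987019-136996646) had 79.5, 88.1 and 98.4 in control and 101, 112 and 128 in IDA hearts, without overlap, also after the length correction. Of all tested genes, 4.97% were higher without overlap uncorrected, and the share after the length correction was not counted. The log2 fold change was 0.35 (SE 0.05, edgeR adjusted p = 9.3e-07), 0.44 with length corrected (adjusted p = 7.62e-07) and 0.25 with GC as well (adjusted p = 9.56e-06). *Plod3* shares 315 bp of exon with *Znhit1* on the other strand.

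*P4ha1* (chr10:59323296-59373304), a known HIF target in other cells, had 128, 135 and 153 in control and 139, 153 and 206 in IDA hearts, and each of the 10 IDA hearts exceeded the mean of the controls. It changed by 0.21 (SE 0.06, edgeR adjusted p = 0.00399), by 0.40 with length corrected (adjusted p = 1.84e-05), where the groups did not overlap, and by 0.52 with GC as well (adjusted p = 3.44e-06). How many of all tested genes were without overlap after the length correction was not counted. The uncorrected call was lost with the erythroid score as a covariate (0.19, adjusted p = 0.132) and among the 8 mice of the high library numbers (0.10, adjusted p = 0.384). *Plod1* averaged 243.7 ± 12.2 CPM in control and 267.6 ± 19.5 in IDA hearts (SD, n = 10 each), from 227 to 266 in control and up to 293 in IDA hearts, with 5 IDA mice above every control. Its log2 fold change was 0.14 (adjusted p = 0.00639), 0.22 with length corrected (adjusted p = 0.000567) and 0.07 with GC as well (adjusted p = 0.181). It was not called among the high library numbers (0.03, adjusted p = 0.742) or with library size as a covariate (0.08, adjusted p = 0.144). *P4ha2* was at 0.17 uncorrected and 0.11 corrected (adjusted p = 0.0691).

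*Plod2*, the lysyl hydroxylase of collagen telopeptides and also a known HIF target in other cells, went the other way. It spans chr9:92542223-92608427. It had 64.0, 74.4 and 88.2 in control and 42.01, 50.3 and 66.9 in IDA hearts, and 8 IDA mice were below every control. A log2 fold change of -0.53 resulted (SE 0.08, edgeR adjusted p = 9.34e-06), with -0.39 with length corrected (adjusted p = 0.000119) and -0.16 with GC as well (adjusted p = 0.0226). At 3711 bp it is close in length to *Plod1* and *Plod3*. It shares 346 bp of exon with *B430319G15Rik* on the other strand.

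Among the further dioxygenases, *P4htm*, a transmembrane prolyl hydroxylase of the endoplasmic reticulum, had 37.1, 40.2 and 43.7 in control and 40.2, 53.6 and 62.5 in IDA hearts. Of the IDA mice, 9 exceeded the highest control, and the log2 fold change was 0.40 (SE 0.06, edgeR adjusted p = 7.64e-06) and 0.25 with length corrected (adjusted p = 0.00141), but 0.10 with GC as well (adjusted p = 0.144). *Phyh* had 224, 247 and 289 in control and 245, 284 and 302 in IDA hearts, with 1 IDA mouse above the control range. It was at 0.12 uncorrected (adjusted p = 0.0492), a call that held in 6 of 20 fits without a mouse, and -0.09 corrected (adjusted p = 0.124). *Ogfod1*, which hydroxylates a ribosomal protein, did not overlap between groups, at 111 to 128 in control and 88.9 to 104 in IDA hearts, with -0.30 uncorrected and 0.02 with length corrected. With GC as well it was called higher (0.12, adjusted p = 0.0261). *Phyhd1* was at 0.21 uncorrected and at 0.00 corrected.

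*Asph*, aspartyl/asparaginyl beta-hydroxylase, moved from a lower to a higher call with the correction. It had 408, 431 and 452 in control and 366, 381 and 431 in IDA hearts, and 7 IDA mice were below every control. Its log2 fold change was -0.15 (SE 0.03, edgeR adjusted p = 0.000614) uncorrected and 0.54 corrected (SE 0.07, adjusted p = 1.3e-06), where the groups did not overlap in the other direction. The share of all tested genes without overlap after the correction was not counted. The locus is known also to make junctin and junctate, sarcoplasmic reticulum proteins without the hydroxylase domain, and the gene counts do not separate them. Of its 12294 bp, 2302 bp are shared with *Clvs1* on the other strand, and which transcripts are present was not tested.

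**Figure D4:**
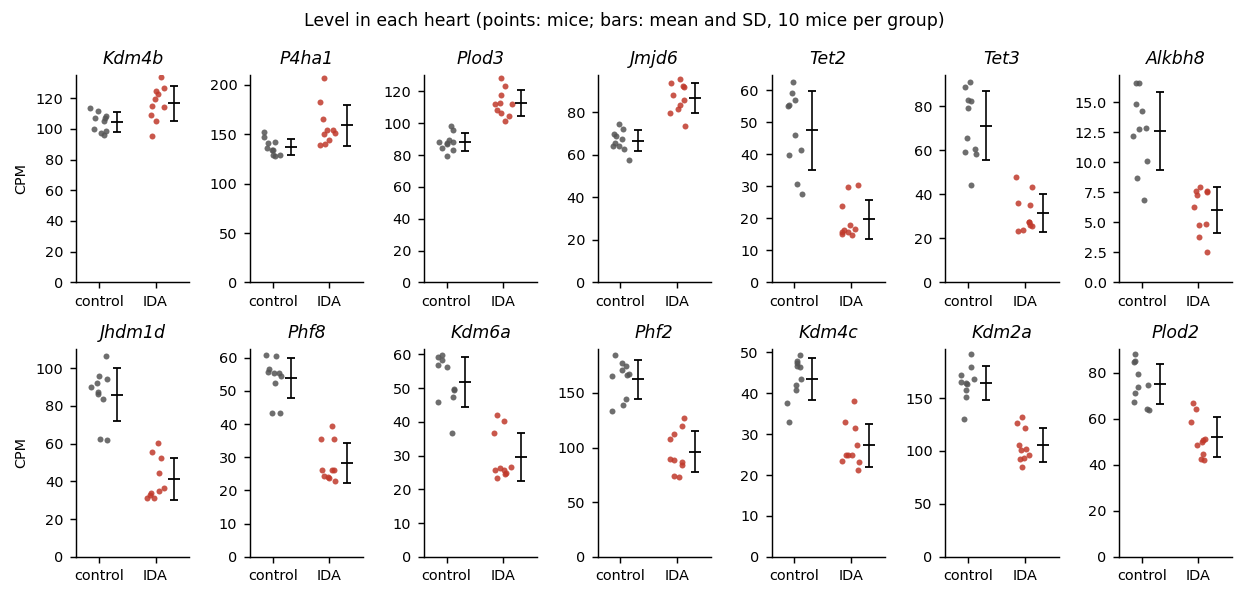
Level in CPM (vertical axes from 0) in each of 20 hearts for the 14 members called in the same direction in all 3 fits, with grey points for control and red points for IDA mice, and the mean and SD of 10 mice beside them. The first 4 genes lie higher in IDA hearts and the other 10 lower, with *Phf8*, *Jhdm1d*, *Phf2* and *Plod3* free of overlap.

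Over the 10 members lower in all 3 fits, the hearts nearest to the other diet came largely from the same mice. IDA mouse 2 was among the 3 IDA hearts nearest to control in 10 of the 10 genes, and IDA mice 5 and 7 in 9 each. Control mice 2 and 6 were among the 3 control hearts nearest to IDA in 10 each. With the length correction, IDA mouse 2 was still there in 10, IDA mice 5 and 7 in 9 each, control mouse 2 in 10 and control mouse 6 in 8. Trends on length also differed between mice. Per doubling of exonic length, log2 CPM deviated by -0.03 in IDA mice 5 and 7 and by -0.09 in IDA mice 2 and 3, in an IDA range of -0.25 to -0.03. Control mice 2 and 6 had 0.02 and 0.04, the lowest of a control range of 0.02 to 0.20. IDA mouse 3, with the same trend as IDA mouse 2, was among the nearest in 2 of the 10 genes. RNA quality by mouse was not analysed here. Leaving out each of the 20 mice in turn kept the uncorrected call of these 10 genes in 20 of 20 fits, with *Tet2* between -1.36 and -1.22 and *Alkbh8* between -1.13 and -0.99.

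Related genes were also compared within each heart, as the log2 ratio of their CPM, which does not depend on library scaling. Of 16 pairs, 12 differed between diets in a two-sided permutation test with 100000 resamples (Benjamini-Hochberg adjusted over the 16 pairs), and 13 with length-corrected values. With the correction *Phf8* to *Phf2* (-0.04, permutation adjusted p = 0.576) and *Kdm3a* to *Kdm3b* (0.09, permutation adjusted p = 0.145) no longer differed, and 3 other pairs did. The members' own differences were known when the pairs were chosen, so these p-values are no independent support. Pairs of other genes were not tested, so the share of pairs that would differ by the same test is not known. Pairs of nearly the same length are given first. No ratio was corrected for GC content, which differed within some pairs, as between *Plod2* (42.2%) and *Plod1* (55.7%). It was closer between *Plod3* (57.0%) and *Plod1*. In the fit with length and GC together, *Plod2* was at -0.16 and *Plod1* at 0.07. *Plod3* to *Plod1* (3278 and 3252 bp) rose by 0.22 on the log2 scale (permutation adjusted p = 0.000622), with 0.22 corrected. *Kdm5b* to *Kdm5c* (6300 and 6267 bp) rose by 0.17 with and without the correction (permutation adjusted p = 0.0106 uncorrected). *Kdm4a* to *Kdm4b* (4956 and 4610 bp) fell by 0.40 on the log2 scale (permutation adjusted p = 0.00024), and by 0.37 corrected. *Plod2* to *Plod1* fell by 0.67, from a control range of -2.004 to -1.41 to an IDA range of -2.79 to -1.83 (permutation adjusted p = 0.00032), and by 0.61 corrected.

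No overlap between diets was seen for 2 ratios. *Kdm2a* to *Kdm2b* was 2.15 to 2.57 in control and 1.52 to 2.08 in IDA hearts, a difference of -0.47 (permutation adjusted p = 0.000213). *Kdm3a* to *Jmjd1c* was -1.27 to -0.86 in control and -0.76 to -0.30 in IDA hearts, a difference of 0.65 (permutation adjusted p = 0.00016). Within KDM6, *Kdm6a* fell against *Kdm6b* by 0.38 uncorrected and by 0.49 corrected. For *Alkbh5* to *Fto* the difference turned from -0.17 to 0.08 with the correction. *P4ha1* to *P4ha2* differed by 0.03 uncorrected (permutation adjusted p = 0.613) and by 0.28 corrected (permutation adjusted p = 0.00024). *Tet2* to *Tet3* (-0.09, permutation adjusted p = 0.196), *Tet1* to *Tet3* (0.22, 0.0595) and *Alkbh2* to *Alkbh3* (0.28, 0.135) did not pass without the correction. *Tet1* to *Tet3* passed without control mouse 1 or 6 or IDA mouse 5, 7 or 10, *Tet2* to *Tet3* without control mouse 6, and *Alkbh2* to *Alkbh3* without IDA mouse 7.

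**Figure D5:**
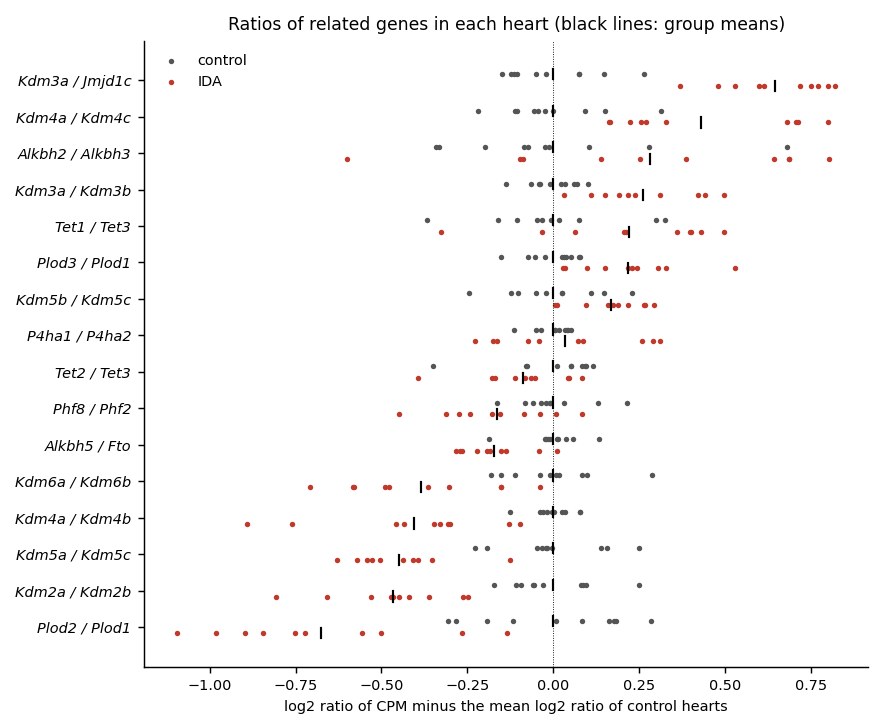
Log2 ratio of CPM for 16 pairs of related genes in each heart, less the mean of the control hearts (horizontal axis), with grey points for control, red points for IDA mice and black lines for group means. *Kdm3a* to *Jmjd1c* lies highest in IDA hearts, 0.65 above control, and *Plod2* to *Plod1* lowest, 0.67 below.

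Genes of neighbouring pathways were counted from lists fixed by symbol. For comparison, 35.0% of all tested genes were higher and 32.5% lower. The shares were 31.5% and 23.5% with length corrected, and 28.0% and 19.4% with GC as well. Of 13 tested among 15 further dioxygenases outside the set, 6 were higher and 3 lower, 8 and 4 with length corrected, and 2 and 4 with GC as well. The largest changes were those of the Y-linked relatives of *Kdm5c* and *Kdm6a*. *Kdm5d* was at -0.88 (SE 0.12) and *Uty* at -0.85 (SE 0.12), with -0.55 and -0.54 corrected. Of 28 genes listed as histone lysine methyltransferases or their relatives, 18 were lower and 3 higher (median -0.39). With length corrected 10 were lower and 6 higher (median 0.03), and 8 and 6 with GC as well. The largest uncorrected changes were those of *Mll3* (-1.17, and -0.35 with length corrected) and *Mll5* (-1.11, and -0.65). The flavin-dependent demethylases, which do not use 2-oxoglutarate, split, with *Kdm1b* at -0.77 and *Kdm1a* at 0.15, each called in the same direction in all 3 fits.

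Among DNA methyltransferases and repair genes of oxidized cytosine, 4 of 5 tested were lower, led by *Dnmt3a* (-0.68) and *Dnmt3b* (-0.40), and 0 of 5 with length corrected. With GC as well 1 was lower, *Dnmt3a* (-0.29, edgeR adjusted p = 0.000475). *Dnmt1* went from a lower call (-0.15) to a higher one with length corrected (0.26), and was also higher with GC as well (0.14). Of 12 writers and readers of N6-methyladenosine, 8 were lower uncorrected, 8 with length corrected and 5 with GC as well, and 2 were higher with either correction. Their largest uncorrected changes were those of *Ythdc2* (-0.94, and -0.54 with length corrected) and *Ythdf3* (-0.62, and -0.30). Partners of collagen maturation were higher in 9 of 16 and lower in 1, with 10 and 1 with length corrected and 3 and 1 with GC as well. Uncorrected, they were led by *Pcolce* at 0.42, a procollagen proteinase enhancer, and *Glt25d2* at -0.42, a collagen galactosyltransferase. The collagens themselves were higher in 2 of 13 and lower in 1 uncorrected, but higher in 12 of 13 with length corrected and in 7 with GC as well. *Col6a3*, of 10841 bp, went from -0.38 to 0.27, and *Col6a2* from 0.24 to 0.40. Of 19 genes of 2-oxoglutarate supply and turnover, 9 were higher and 4 lower, 1 and 5 with length corrected, and 6 and 5 with GC as well.

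Cardiomyocyte markers were abundant, at a summed 4599 to 5541 CPM in control and 4161 to 5698 in IDA hearts, with 4 of 8 higher and 1 lower. Fibroblast markers summed to 1345 to 1644 and 1347 to 1809, with 2 of 8 higher and 1 lower, beside the collagen hydroxylase result. Endothelial markers were higher in 3 and lower in 4 of 8 (1777 to 2040 and 1584 to 2178 CPM), smooth muscle and pericyte markers in 3 and 2 of 8 (1114 to 1328 and 1056 to 1301 CPM), and macrophage and leukocyte markers in 3 and 3 of 8 (365 to 435 and 328 to 485 CPM). Erythroid markers were higher in 3 of 4 tested. Their sum was 293 to 366 CPM in control and 342 to 835 in IDA hearts, so the ranges overlapped. *Slc4a1*, the red-cell anion exchanger, was at 4.04 on the log2 scale, while *Hba-a1*, *Hba-a2* and *Hbb-b2* were listed at 0 in every heart. With an erythroid score as a covariate, 11 members were higher and 19 lower. Because its markers differ between diets, the score also takes up part of the diet contrast. The part of red-cell precursors in the member results was not tested further. No adipocyte, liver or skeletal muscle marker was called uncorrected or with length corrected (0 of 3 and 0 of 4 tested). With GC as well, 2 of the 4 were lower, *Acta1* (-0.21, edgeR adjusted p = 0.0149) and *Ckm* (-0.21, adjusted p = 0.00533). The liver marker *Alb* varied widely between mice. It averaged 7.21 ± 15.3 CPM (SD) on the control diet, where 1 heart reached 50.4. IDA hearts averaged 14.1 ± 27.4 CPM, with a maximum of 91.5. Whether these hearts are the mice that the study left out was not tested. With the mice split by library number, 7 members were higher and 20 lower in the high range, and 14 and 22 in the low range. Shares of all tested genes were not counted for these fits or for the erythroid covariate.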

How the data were processed

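Messenger RNA of whole hearts was analysed in 20 mice, 10 per diet, assigned by their labels. The authors mapped 75-bp paired reads with STAR (mm10 genome). PCR duplicates were then taken out, and featureCounts (version 1.4.5-p1) assigned pairs to the exons of each gene symbol while ignoring strand. The values deposited are raw counts of read pairs, beside the exonic length of each gene. Without the option for it, featureCounts leaves pairs that overlap 2 genes unassigned. The removal of duplicates limits counts of densely covered genes, and the densest member (*Phyh*) had 1.33 read pairs per exonic base. Among the names, 27 had become dates, none of them a member.

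Counts were analysed in R 4.3.3 with edgeR (version 4.0.16, TMM, quasi-likelihood, diet as the factor) on 13590 genes with at least 1 CPM in 10 mice, with 9830 excluded. DESeq2 (version 1.42.0) was an alternative. Log2 CPM used a prior count of 2. The length correction entered per-mouse loess curves (span 0.5, degree 1) of log2 CPM deviations on log2 exonic length as offsets. GC content came from GENCODE transcripts for 99.2% of tested genes. The steps were tested on simulated data. Ratios were tested with permutations in Python 3.11.15 and shared exons found with bedtools (version 2.31.1). Library totals were 6682177 to 8960688 read pairs, and members with few pairs per heart are limited by counting error.

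The members, the lists of other genes and markers, and the pairs were chosen with earlier results of these data known. Values by mouse were given for members called in the same direction with and without the length correction, for those called in opposite directions, and for the highest of each class per kb. Of the other lists, the 2 called genes with the largest change were named, except some that are not reported here. *Alkbh2*, *Alkbh3*, *Tet1*, *Ogfod1*, *Dnmt1*, *Alb*, *Acta1* and *Ckm* were given extra values, and *Alas2* was counted but not described, after values were seen. Replicate numbers did not pair the mice: deviations of same-numbered mice correlated from -0.28 to 0.26. Nothing in the labels says whether mice shared a litter. The smallest chi-square per degree of freedom between 2 mice of a group was 1.50, so no library was counted as a duplicate.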

Additional observations from a re-analysis of the deposited data

Results flagged for a closer look

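Each of the 42 tested members was screened in both groups, 84 groups of 10 mice, for a highest or lowest mouse set apart from the rest (Dixon's ratio, on log2 CPM, of the gap to the group's range, above its 95% critical value). Chance alone flags about 1 in 20 groups, and 2 were found. *Jmjd4* had 59.6 CPM in IDA mouse 3, where the next IDA mouse had 41.5 CPM (ratio 0.648). *Ogfod1* had 111 CPM in control mouse 6, where the next control mouse had 119 CPM (ratio 0.511).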

How the results depend on the processing

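Without correction, 15 members were higher and 24 lower. Between them, DESeq2, p below 0.01 in both packages, other normalizations and filters, and covariates for library size or the erythroid score gave 11 to 15 higher and 19 to 25 lower. The lower count became 13 with the gene length correction and 13 with the replicate block and length together, and 12 with length and GC. With the replicate block alone it was 24, with 14 higher. There *Phyh* lost its call (0.12, adjusted p = 0.0818), *Tet1* to *Tet3* passed (permutation adjusted p = 0.0361), and no other named call changed. Within the high library numbers, 7 members were higher, and 7 higher and 7 lower with length corrected, in 8 mice. Leaving out a mouse gave 14 to 15 higher and 22 to 25 lower, 12 to 14 higher and 13 to 14 lower with length corrected, and 12 to 14 ratios that differed.

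Among members given by mouse, directions reversed with length, with block and length, and with length and GC for *Kdm3a* (0.12, 0.12, 0.26), *Kdm5b* (0.21, 0.21, 0.31), *Alkbh5* (0.13, 0.13, 0.067), *Fto* (0.057, 0.055, 0.083) and *Asph* (0.54, 0.54, 0.57), for *Kdm2b* with the first pair (0.15, 0.16), and for the ratio of *Alkbh5* to *Fto* with length (0.079). *Phyh* reversed with length (-0.093), block and length (-0.095), a library size covariate (-0.033) and within the high library numbers (-0.016). Of the others, *Kdm3b* (0.04, 0.11) and *Ogfod1* (0.02, 0.12) turned with length and with length and GC. The cause was not tested. The corrections for GC and the library number analyses were chosen after seeing the data. Among tested members, *Alkbh2* and *Alkbh8* rest on the fewest read pairs.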
